A study of Mus musculus with 9 samples.

Results

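NRF2 antioxidant genes were examined in sorted macrophages of the mouse lung. The 10 genes were chosen by symbol: Nfe2l2, which encodes the transcription factor NRF2, its inhibitor Keap1, and the target genes Gclc, Gclm, Slc7a11, Gsr, Txnrd1, Srxn1, Prdx1 and Nqo1. They were 10 of the 24346 gene symbols with a value, and all 10 were among the 10686 genes that reached the minimum for testing, an FPKM (reads on a gene, scaled to its exon length and to the mapped reads of the sample) of at least 1 in at least 3 samples. The rule itself used no measured value, but the set was proposed with earlier results of these data known.

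The study implanted Lewis lung carcinoma (LLC) cells, a C57BL/6 lung cancer line carrying tdTomato, into the left lung of female C57BL/6 mice, and the labels give postnatal week 10 for every sample. CD45+ autofluorescent lung cells were sorted into 3 populations of 3 samples each. Ctrl-AM were Siglec-F+ alveolar macrophages (AMs) of vehicle-control mice without tumor cells, and Tumor-AM were the same Siglec-F+ gate in mice with LLC cells. Tumor-macrophage were the Siglec-F- F4/80+ CD11b+ cells of mice with LLC cells, which the study regards as tumor-associated macrophages (TAMs). Control and tumor-bearing mice were bred separately, so breeding and tumor cannot be told apart. The sorted populations also differ in their gate, and in bulk RNA fewer cells of a type and less RNA per cell cannot be told apart.

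NRF2 is held in the cytoplasm by KEAP1, which acts as the adaptor of a CUL3 ubiquitin ligase and sends NRF2 to the proteasome. Electrophiles and oxidants modify cysteines of KEAP1, NRF2 then accumulates, enters the nucleus, pairs with a small MAF protein and binds antioxidant response elements in the promoters of its targets. Much of this control acts on the NRF2 protein, so that the RNA of Nfe2l2 is not a measure of NRF2 activity. In alveolar macrophages, which face inhaled oxidants, the targets supply glutathione, reduced thioredoxin and peroxide-removing enzymes.

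The antioxidant response element has the core TGACNNNGC. This core was searched on both strands of RefSeq promoter windows of GRCm38.p6, which hold 250 bases before and 50 bases after each annotated start. Windows were found for 8 of the 10 genes, all but Gclc and Gsr. The core was present for 5 of these 8 genes (62.5%), against 14% of 27025 genes with a window and 17.4% of the 8195 tested genes with a window. By window, 5 of 10 member windows (50%) held it, against 12.4% of 32851 windows. Of 48 genes of a wider NRF2 pathway list, described below, 22.9% held it. Because the members include targets that NRF2 binds at this element, their higher share follows in part from how they were chosen. The matches of Gclm, Nfe2l2, Prdx1 and Txnrd1 are shown because these promoters belong to both the regulator and its targets. Each line gives the minus strand of the chromosome from 5′ to 3′, with the core in capitals and 10 flanking bases on each side. The Nfe2l2 match lies on the strand of the gene, and the other 3 lie on the strand opposite to it.
Gclm, chr3:122245413-122245441: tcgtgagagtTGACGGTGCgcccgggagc
Nfe2l2, chr2:75704885-75704913: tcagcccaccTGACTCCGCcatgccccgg
Prdx1, chr4:116685456-116685484: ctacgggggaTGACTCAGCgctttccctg
Txnrd1, chr10:82859104-82859132: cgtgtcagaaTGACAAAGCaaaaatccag

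The Gclm, Nfe2l2, Prdx1 and Txnrd1 matches began 134, 240, 133 and 92 bases before the annotated start, counted along the gene. Txnrd1 has 3 windows for different starts, of which 1 held the core. In Prdx1 the core overlapped TGANTCA, the core of AP-1 sites. The fifth match, in Srxn1, began 28 bases after the start. No core was found for Keap1, Slc7a11 or Nqo1 in these windows, which says only that the letters are not there. A match is a sequence feature and not a measured binding site.

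Libraries were of similar depth. From the steps between low values, depth was estimated at 10200000 to 12900000 reads, and the sum of FPKM ran from 635560 to 785745. The sorted populations carried the markers of their names. Siglecf was listed at 164 to 209 FPKM in the 6 AM samples and at 0.456 to 0.835 FPKM in Tumor-macrophage. The summed FPKM of 12 AM markers ran from 31248 to 36580 in Ctrl-AM, from 26461 to 42706 in Tumor-AM and from 316 to 623 in Tumor-macrophage, where Ear1 was listed at 0 in Tumor-macrophage 2. The summed FPKM of 13 monocyte and TAM markers ran from 231 to 338, from 511 to 895 and from 35611 to 48686, respectively. The AM sums hide shifts of single markers. Every Tumor-AM sample lay below every Ctrl-AM sample for Fabp1, Ear1, Ear2, Pparg and Siglecf, and above for Siglec1. Mean Fabp1 was 1013 FPKM in Ctrl-AM and 326 FPKM in Tumor-AM. From Ctrl-AM to Tumor-AM the 12 AM markers had a median difference of -0.34 in log2(FPKM + 1), with 4 above 0. In limma 2 were lower at an adjusted p under 0.05 and 0 higher.

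The members covered a wide range of levels. FPKM is scaled to transcript length, so that levels can be ordered between genes. In Ctrl-AM the order from high to low was Prdx1, Gsr, Nfe2l2, Txnrd1, Gclm, Srxn1, Gclc, Keap1, Slc7a11 and Nqo1, and only the neighbours Gsr and Nfe2l2 had overlapping ranges. In Tumor-AM, Srxn1 stood ahead of Gclm with overlapping ranges, Gsr and Nfe2l2 overlapped again, and the other neighbours were apart. In Tumor-macrophage, Gsr stood in 6th place, behind Gclm, and only Gclc and Keap1 overlapped. Prdx1 was first and Nqo1 last in every group. By estimated reads, Nqo1 rested on 6.36 to 81.6 reads per sample, with a median of 26.5, whereas each other member had at least 366 reads in every sample. These read numbers cover counting error only.

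**Figure D1:**
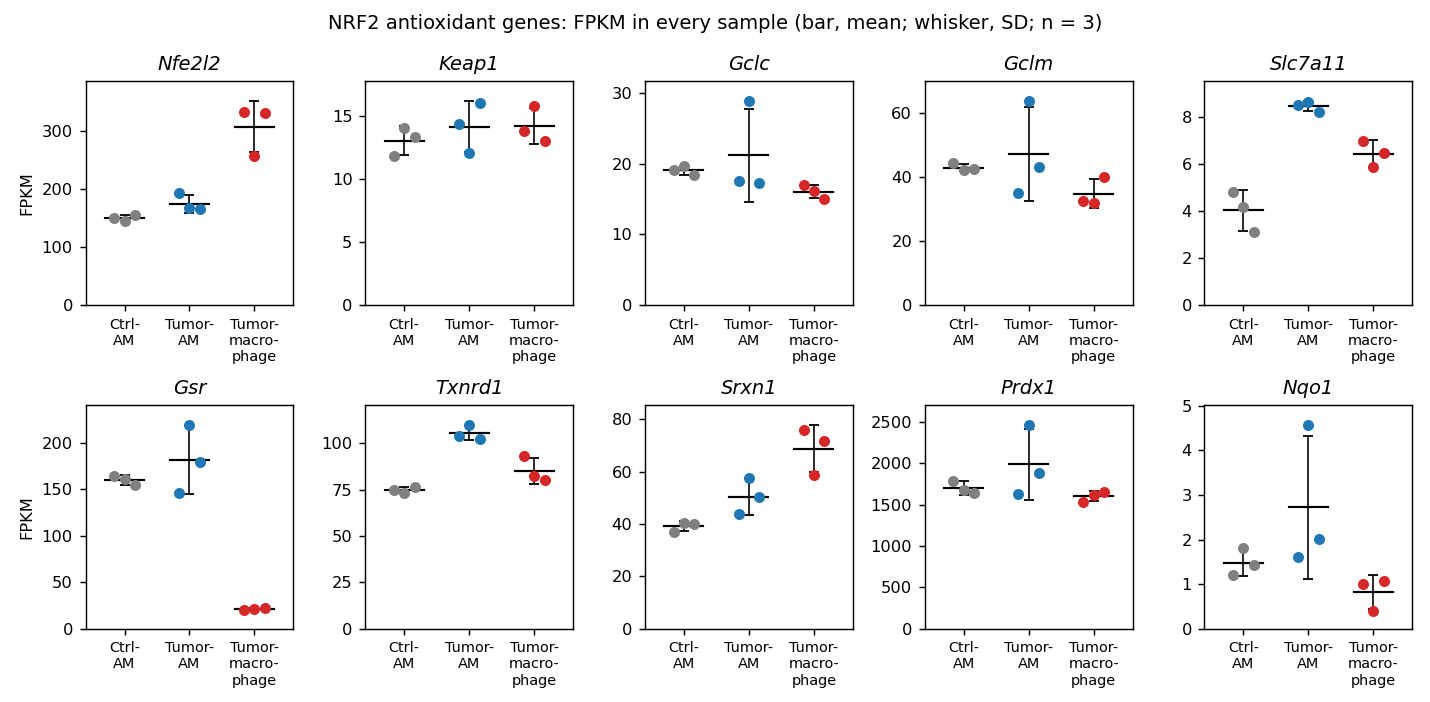
FPKM of the 10 NRF2 antioxidant genes in every sample, 1 panel a gene, with points for the 3 samples of Ctrl-AM (grey), Tumor-AM (blue) and Tumor-macrophage (red), a bar at the mean and whiskers of 1 SD. Gsr lay at 20.1 to 21.8 FPKM in Tumor-macrophage against 146 to 219 in Tumor-AM, Nfe2l2 was highest in Tumor-macrophage, and Slc7a11 and Txnrd1 were highest in Tumor-AM.

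The first comparison asked how AMs differ between lungs with and without LLC cells. Slc7a11 and Txnrd1 rose in Tumor-AM, and no member fell. Thus 2 of 10 members changed at an adjusted p under 0.05, against 10.3% of all genes tested (7.11% higher and 3.18% lower). For 4 of 10 members, Nfe2l2, Slc7a11, Txnrd1 and Srxn1, the values of Tumor-AM and Ctrl-AM did not overlap, against 32.3% of all genes. The differences of all 10 were above 0, with a median of 0.21 on the log2(FPKM + 1) scale, against 52.7% of all genes above 0 and a median of 0.01. After rescaling to a common sum (TPM), which moved the median of all genes to -0.11, 7 of 10 were above 0 and 10 of 10 above that median. The shared direction depended on sample Tumor-AM 2. Without it, and before that rescaling, the differences of Gclc and Gclm were -0.13 and -0.14. The labels do not name the animals, while the study describes the samples of a population as separate mice, and p-values measure the spread between these samples.

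The second comparison, between both macrophage populations of tumor-bearing lungs, gave Nfe2l2 and Srxn1 higher and Gsr, Txnrd1 and Nqo1 lower in Tumor-macrophage. These were 5 of 10 members, against 48.6% of all genes (24.2% higher and 24.4% lower), so that the share was near the background. The ranges of 7 of 10 members did not overlap, against 55.3%. The median difference of the members was -0.32, against 0.00 over all genes tested. The third comparison, of Tumor-macrophage with Ctrl-AM, gave Nfe2l2, Slc7a11 and Srxn1 higher and Gsr lower, 4 of 10 members against 54.8% of all genes (27.7% higher and 27.1% lower). Here 8 of 10 did not overlap, against 62.3%, and the median was 0.01 against -0.01 over all genes. The 3 comparisons share samples in pairs and are not independent of each other.

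**Figure D2:**
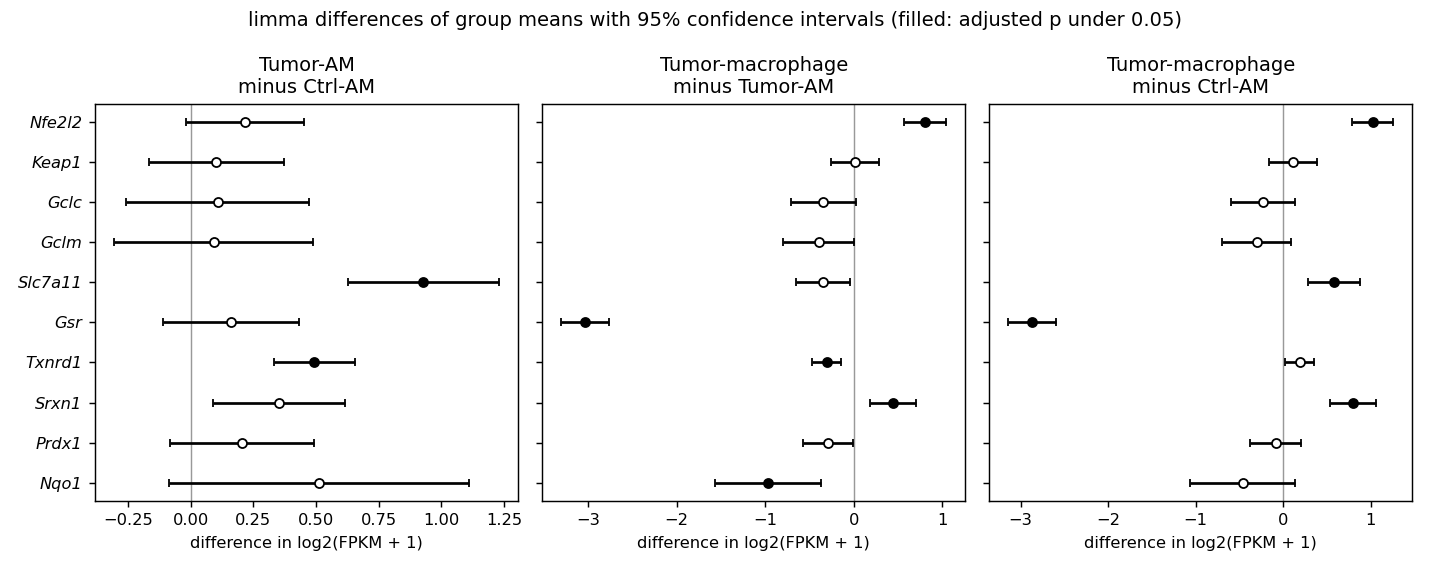
Differences of group means in log2(FPKM + 1) for the 10 members in the 3 comparisons, with 95% confidence intervals from limma; filled points had an adjusted p under 0.05, and each panel has its own scale. Slc7a11 and Txnrd1 are filled in the first panel, 5 members in the second and 4 in the third, with Gsr near -3 in both comparisons of Tumor-macrophage.

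The regulators came first in the pathway and behaved differently from each other. Nfe2l2 (chromosome 2, 75675513 to 75704641, minus strand, GRCm38) had 149, 145 and 155 FPKM in the Ctrl-AM samples, 192, 166 and 164 FPKM in the Tumor-AM samples and 333, 256 and 331 FPKM in the Tumor-macrophage samples. Every Tumor-AM sample lay above every Ctrl-AM sample and below every Tumor-macrophage sample. In log2(FPKM + 1) the step from Ctrl-AM to Tumor-AM was 0.22 ± 0.106 (standard error, SE, of limma, adjusted p = 0.243, 95% confidence interval -0.02 to 0.45). Nfe2l2 rose by 0.81 ± 0.106 from Tumor-AM to Tumor-macrophage (limma, adjusted p = 9.59e-05) and by 1.02 ± 0.106 from Ctrl-AM (limma, adjusted p = 1.33e-05), which is 1.75-fold and 2.03-fold.

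Keap1 (chromosome 9, 21229730 to 21239361, minus strand) had 11.8, 14.0 and 13.3 FPKM in the Ctrl-AM samples, 14.4, 12.0 and 16.1 FPKM in the Tumor-AM samples and 13.8, 15.8 and 13.0 FPKM in the Tumor-macrophage samples. All 3 groups overlapped. The difference between Tumor-macrophage and Tumor-AM was 0.01, with a 95% confidence interval of -0.26 to 0.28, and that between Tumor-AM and Ctrl-AM was 0.10, with an interval of -0.17 to 0.37 (limma, adjusted p = 0.953 and 0.669). An antisense gene, Gm16754, overlaps Keap1 and shares 8.33% of its windows of 75 bases. The use of strand in counting was not given in the sources used here, so reads of the pair cannot be told apart.

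The glutathione members comprise the transporter that imports cystine, both subunits of the enzyme that makes the first bond of glutathione, and the reductase that recycles it. Slc7a11 (chromosome 3, 49892526 to 50443614, minus strand), the light chain of the cystine and glutamate exchanger xCT, had 4.82, 4.16 and 3.09 FPKM in the Ctrl-AM samples, 8.51, 8.64 and 8.23 FPKM in the Tumor-AM samples and 7.00, 5.86 and 6.47 FPKM in the Tumor-macrophage samples. All Tumor-AM values lay above all values of the other groups, and Ctrl-AM had the lowest. Slc7a11 rose by 0.93 ± 0.136 in Tumor-AM against Ctrl-AM (1.90-fold, limma, adjusted p = 0.00265) and by 0.58 ± 0.136 in Tumor-macrophage against Ctrl-AM (limma, adjusted p = 0.00416). The step from Tumor-AM to Tumor-macrophage was -0.35 ± 0.136 (limma, adjusted p = 0.0559). It passed the threshold in 6 of 18 alternatives. These included TPM, where it was -0.45. Limma's adjusted p was 0.0417 without Ctrl-AM 1 and 0.0262 without Ctrl-AM 3. Slc7a11 shares 0.929% of its windows of 75 bases with other genes, Tuba1a and Tuba1b among them. The counting of such reads was not given in the sources used here.

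Gclc (chromosome 9, 77754535 to 77794485, plus strand), the catalytic subunit of glutamate-cysteine ligase, had 19.1, 19.7 and 18.5 FPKM in the Ctrl-AM samples, 17.5, 28.9 and 17.3 FPKM in the Tumor-AM samples and 17.0, 16.2 and 15.1 FPKM in the Tumor-macrophage samples. Gclm (chromosome 3, 122245557 to 122270732, plus strand), its modifier subunit, had 44.2, 42.0 and 42.3 FPKM, 34.9, 63.5 and 43.0 FPKM, and 32.4, 31.7 and 39.8 FPKM, in the same order. In both genes Tumor-AM 2 was far above the other Tumor-AM samples. For Gclc those 2 lay below all Ctrl-AM samples, and for Gclm they lay below and within the Ctrl-AM range. Tumor-AM against Ctrl-AM gave 0.11 ± 0.165 for Gclc and 0.09 ± 0.179 for Gclm (limma, adjusted p = 0.750 and 0.808), and without Tumor-AM 2 the values were -0.13 and -0.14. Tumor-macrophage against Tumor-AM gave -0.34 ± 0.165 and -0.40 ± 0.179 (limma, adjusted p = 0.112 and 0.0923), and without Tumor-AM 1 the Gclm value was -0.59 (limma, adjusted p = 0.0133). Tumor-macrophage lay below Ctrl-AM in every sample of both genes, with differences of -0.24 and -0.30 (limma, adjusted p = 0.252 and 0.174). With Tumor-AM 2 left out of the shared spread, the adjusted p of these 2 differences was 0.034 and 0.0374.

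Gsr (chromosome 8, 33652523 to 33698163, plus strand), the glutathione reductase that restores reduced glutathione with NADPH, had the largest difference of any member. It had 165, 161 and 154 FPKM in the Ctrl-AM samples, 146, 219 and 179 FPKM in the Tumor-AM samples and 20.1, 21.2 and 21.8 FPKM in the Tumor-macrophage samples. The AM groups overlapped, and every Tumor-macrophage sample lay far below them. Gsr fell by 3.03 ± 0.122 from Tumor-AM (8.17-fold, limma, adjusted p = 1.31e-08) and by 2.87 ± 0.122 from Ctrl-AM to Tumor-macrophage (7.31-fold, limma, adjusted p = 1.34e-08). Tumor-AM against Ctrl-AM gave 0.16 ± 0.122 (limma, adjusted p = 0.472), with a 95% confidence interval of -0.11 to 0.43. All 12 AM markers were likewise lower in Tumor-macrophage, beside 24.4% of all genes tested that were lower than in Tumor-AM. The median difference of these markers from Tumor-AM was -5.40, and their part in the Gsr difference was not tested.

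The thioredoxin and peroxiredoxin members moved in different directions. Txnrd1 (chromosome 10, 82833951 to 82897712, plus strand), the cytosolic thioredoxin reductase, had 74.7, 73.2 and 76.2 FPKM in the Ctrl-AM samples, 104, 110 and 102 FPKM in the Tumor-AM samples and 93.3, 82.3 and 80.4 FPKM in the Tumor-macrophage samples. The 3 groups did not overlap, with Tumor-AM highest and Ctrl-AM lowest. Txnrd1 rose by 0.49 ± 0.0727 in Tumor-AM against Ctrl-AM (1.41-fold, limma, adjusted p = 0.00271) and fell by 0.31 ± 0.0727 from Tumor-AM to Tumor-macrophage (1.24-fold, limma, adjusted p = 0.00524). Tumor-macrophage against Ctrl-AM gave 0.19 ± 0.0727 (limma, adjusted p = 0.0505). That last difference passed the threshold in 5 of 18 alternatives. It was 0.21 without Tumor-macrophage 2 and 0.23 without Tumor-macrophage 3 (limma, adjusted p = 0.0488 and 0.0372), and it was -0.05 after rescaling to TPM, where the median of all genes was -0.22.

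Srxn1 (chromosome 2, 152105516 to 152111376, plus strand), the sulfiredoxin that repairs over-oxidized peroxiredoxins, had 36.9, 40.2 and 40.2 FPKM in the Ctrl-AM samples, 43.6, 57.7 and 50.1 FPKM in the Tumor-AM samples and 76.0, 58.8 and 71.7 FPKM in the Tumor-macrophage samples. The 3 groups did not overlap and stood in the same order as for Nfe2l2. The gap between the highest Tumor-AM sample and the lowest Tumor-macrophage sample was small. Srxn1 rose by 0.44 ± 0.118 from Tumor-AM to Tumor-macrophage (1.36-fold, limma, adjusted p = 0.0103) and by 0.79 ± 0.118 from Ctrl-AM (1.73-fold, limma, adjusted p = 0.00021). Tumor-AM against Ctrl-AM gave 0.35 ± 0.118 (limma, adjusted p = 0.0908). With no filter on low values the first of these had a limma adjusted p of 0.0581.

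Prdx1 (chromosome 4, 116685544 to 116700822, plus strand), an abundant peroxiredoxin that removes hydrogen peroxide, had 1792, 1679 and 1637 FPKM in the Ctrl-AM samples, 1624, 2464 and 1882 FPKM in the Tumor-AM samples and 1535, 1615 and 1657 FPKM in the Tumor-macrophage samples. All groups overlapped, and Tumor-AM 2 was the highest of the 9 samples. The differences were 0.20 ± 0.129 for Tumor-AM against Ctrl-AM, -0.29 ± 0.129 for Tumor-macrophage against Tumor-AM and -0.09 ± 0.129 for Tumor-macrophage against Ctrl-AM (limma, adjusted p = 0.376, 0.0877 and 0.593). Without Tumor-AM 1 the second of these was -0.43 (limma, adjusted p = 0.0117). After quantile normalization Prdx1 was lower in Tumor-macrophage than in either AM group, with differences of -0.53 from Tumor-AM and -0.44 from Ctrl-AM (limma, adjusted p = 0.000279 and 0.000803). The processed copies Gm21399 and Gm7204 share windows of 75 bases with 5.63% of Prdx1, and the counting of such reads was not given in the sources used here.

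Nqo1 (chromosome 8, 107388225 to 107403206, minus strand) encodes a quinone reductase that is widely used as a readout of NRF2. It was the lowest member, with 1.21, 1.80 and 1.43 FPKM in the Ctrl-AM samples, 1.61, 4.57 and 2.01 FPKM in the Tumor-AM samples and 1.00, 0.390 and 1.07 FPKM in the Tumor-macrophage samples. Tumor-AM and Ctrl-AM overlapped, and Tumor-macrophage lay below both. Nqo1 fell by 0.97 ± 0.269 from Tumor-AM to Tumor-macrophage (limma, adjusted p = 0.012), while Tumor-AM against Ctrl-AM gave 0.51 ± 0.269 and Tumor-macrophage against Ctrl-AM -0.46 ± 0.269 (limma, adjusted p = 0.279 and 0.171). The size of the called difference depended on Tumor-AM 2 and on the pseudocount, with -0.64 without Tumor-AM 2 (adjusted p = 0.0276) and -1.58 with a pseudocount of 0.1 (adjusted p = 0.0121), and with no filter its adjusted p was 0.0823 (limma).

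The values of Gclc, Gclm, Gsr, Prdx1 and Nqo1 were spread more widely over the Tumor-AM samples than over those of the other groups. This comparison of single samples was made after the values were seen. Tumor-AM 2 was the highest of the 3 Tumor-AM samples in 8 of 10 members, all but Nfe2l2 and Keap1, against 35.9% of all genes tested. The median difference of the members from the mean of the other 2 samples was 0.37 in Tumor-AM 2, -0.32 in Tumor-AM 1 and -0.08 in Tumor-AM 3, against 0.00 over all genes in each. The coefficient of variation over the 3 Tumor-AM samples was 31.2% for Gclc, 31.3% for Gclm, 20.1% for Gsr, 21.6% for Prdx1 and 58.9% for Nqo1. In Ctrl-AM these were 3.17%, 2.76%, 3.24%, 4.72% and 20.2%, and in Tumor-macrophage 5.89%, 13.0%, 4.02%, 3.86% and 45.7%. A wider spread in Tumor-AM than in Ctrl-AM was not particular to members. It was 38.1% against 9.47% for Hmox1, 33.4% against 5.63% for Blvrb and 17.4% against 0.639% for Txn1. Bach1 (1.75% against 7.98%) and Idh1 (2.59% against 6.69%) went the other way. The coefficient of variation was not compared over all genes tested. Slc7a11 and Txnrd1, the members that rose, varied little in Tumor-AM, by 2.47% and 3.67%.

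The same sample was also the highest of its group in Me1 and Akr1b8, which are no members and were picked after their values were seen. Me1, a NADPH-supplying NRF2 target that did not pass the filter, was listed at 0.312, 4.79 and 1.60 FPKM in Tumor-AM 1, 2 and 3, and Akr1b8, an aldo-keto reductase, at 5.36, 37.1 and 17.4 FPKM. Akr1b8 also varied within Ctrl-AM, from 3.58 to 13.4 FPKM. Tumor-AM 2 had the highest summed AM markers (42706 FPKM, against 26461 and 27238) and the lowest summed TAM markers (511 FPKM, against 681 and 895) of its group. Most of the AM marker sum was a single gene, Chil3, which ran from 20425 to 36468 FPKM over the Tumor-AM samples. Marco, an AM scavenger receptor picked after its values were seen, was at 329 FPKM in Tumor-AM 2 and at 60.2 and 95.3 FPKM in Tumor-AM 1 and 3. Car4 also varied widely over the Tumor-AM samples, from 554 to 1169 FPKM. Other AM markers varied little there, with Siglecf at 164 to 183, Pparg at 135 to 144, Siglec1 at 39.0 to 41.5 and Ear1 at 1021 to 1168 FPKM. The part of cell composition in the spread of the members was not tested. Across the 50 tested genes of the wider pathway list, Tumor-AM 2 did not stand apart. It had a median difference of 0.03 and was the highest of its group in 19 genes. Tumor-AM 3 had 0.07 and was highest in 20, and Tumor-AM 1 had -0.07 and was highest in 11.

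**Figure D3:**
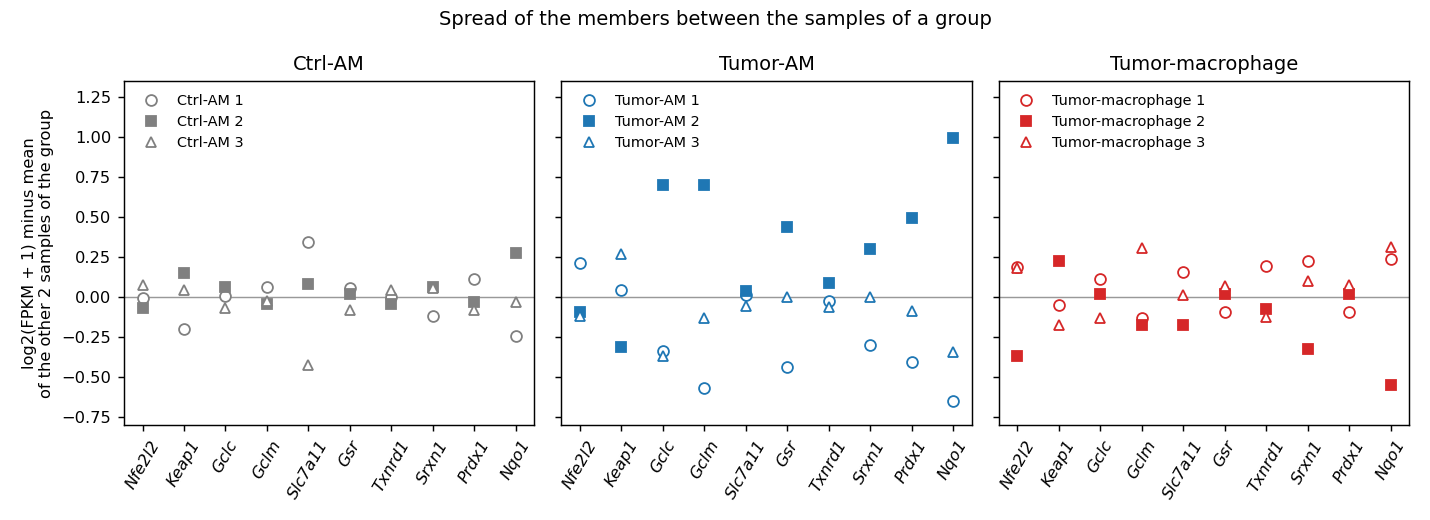
Each sample against the mean of the other 2 samples of its group, in log2(FPKM + 1), for the 10 members, with 1 panel a group and 1 marker shape a sample number. In the Tumor-AM panel the filled squares of Tumor-AM 2 lie above 0 for 8 of 10 members, by up to 0.99 for Nqo1 and 0.70 for Gclc and Gclm, and the open circle of Tumor-AM 1 reaches -0.65 for Nqo1.

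The values of Slc7a11 and Txnrd1 were also set against marker levels. In Tumor-AM, 9 of 13 monocyte and TAM markers were higher than in Ctrl-AM, with a median difference of 1.04. Both Slc7a11 and Txnrd1 were higher in every Tumor-AM sample than in every Tumor-macrophage sample. Of 6 fibroblast markers, 2 of the 3 tested rose in Tumor-AM, where their summed FPKM was 12.8 to 85.3 against 3.72 to 6.70 in Ctrl-AM, and Tumor-AM 3 had the highest sum. Of 11 immediate-early and dissociation genes, 2 rose, and their sum ran from 2134 to 2786 FPKM in Tumor-AM against 1764 to 2127 in Ctrl-AM. Beside each of these counts, 7.11% of all genes tested rose in Tumor-AM. The part of these lists in the 2 changes was not tested.

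Other genes of the pathway were taken from a list of 54 genes in 6 roles, of which 50 were tested. Gsta4, Ggt1, Me1 and Aox1 did not pass the filter. In Tumor-AM against Ctrl-AM, 6 rose and 1 fell, beside the 10.3% of all genes that changed, with a median difference of 0.11. Glrx, a glutaredoxin, rose from 67.5 to 116 mean FPKM (0.78 ± 0.146, limma, adjusted p = 0.00816), and Tkt, the transketolase of the pentose phosphate pathway, rose from 110 to 143 (0.38 ± 0.0719, limma, adjusted p = 0.00867). The exporter Abcc1 (0.51), the peroxiredoxins Prdx6 (0.37) and Prdx2 (0.34) and the ferritin light chain Ftl1 (0.59) rose as well, and the glutathione transferase Gsto1 fell by 0.28, each with limma's adjusted p between 0.0248 and 0.0494. These 5 calls were lost in at least 9 of 18 alternatives each, the removal of Ctrl-AM 1 or Ctrl-AM 2 from the fit among them, which left 2 pathway genes called, whereas Glrx and Tkt were past the threshold in 17 of 18. Ftl1 has processed copies in the genome, and its value is uncertain for that reason.

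Tumor-macrophage differed from Tumor-AM in 29 of the 50 genes, 10 higher and 19 lower, beside 48.6% of all genes tested (24.2% higher and 24.4% lower). It differed from Ctrl-AM in 36 of the 50, 17 higher and 19 lower, beside 54.8% (27.7% higher and 27.1% lower). The NADPH supply was the group with a single direction, with 5 of 5 tested genes lower in both comparisons. Idh1, the cytosolic isocitrate dehydrogenase, fell by 1.71 ± 0.0786 from Tumor-AM and by 1.59 from Ctrl-AM, and Taldo1, the transaldolase, fell by 1.30 and 1.28. Idh1 lay at 81.5 to 97.1 FPKM in Tumor-macrophage against 254 to 300 FPKM in the AM groups. The adjusted p of the 5 genes was at most 0.000406 against Tumor-AM and 0.0397 against Ctrl-AM (limma). G6pdx had the latter value and stayed past the threshold in 10 of 18 alternatives.

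Genes of glutathione synthesis and use changed in both directions. Of the 12 tested, 6 were lower and 1 higher than in Tumor-AM, and 7 were lower and 4 higher than in Ctrl-AM. Among all genes tested, 24.4% were lower and 24.2% higher than in Tumor-AM, and 27.1% lower and 27.7% higher than in Ctrl-AM. Mgst2, a microsomal glutathione transferase, fell by 3.62 ± 0.283, from 17.9, 30.8 and 31.8 FPKM in Tumor-AM to 2.36, 0.919 and 0.631 (limma, adjusted p = 1.79e-06). Gstm1 fell by 2.49 ± 0.204, and the secreted glutathione peroxidase Gpx3 rose by 2.33 ± 0.163, from 5.61, 4.39 and 5.91 to 34.4, 23.5 and 35.4 FPKM (limma, adjusted p = 2.65e-06 and 7.36e-07). Glrx rose by 1.01 ± 0.146 against Ctrl-AM (limma, adjusted p = 0.000161).

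The remaining roles held changes in both directions. Among partners and control genes, Cul3, the scaffold of the ligase that acts with KEAP1, rose by 1.27 ± 0.263 from Tumor-AM (limma, adjusted p = 0.00228), with 24.9, 24.1 and 10.6 FPKM in Tumor-macrophage against 6.32 to 8.44 in the AM samples, so that Tumor-macrophage 3 stood well below the other 2. The repressor Bach1 rose by 0.40, the small MAF gene Maff fell by 1.13 and Nfe2l1, a relative of Nfe2l2, fell by 0.51 (limma, adjusted p = 0.0165, 3.41e-05 and 0.00126). The peroxiredoxins Prdx4 and Prdx6 rose by 0.85 and 0.72, whereas Txnip, the inhibitor of thioredoxin, and Txn1 fell by 0.93 and 0.35 (limma, adjusted p at most 0.0264 for these 4). Hmox1, the inducible heme oxygenase, fell by 1.28 ± 0.242, from 1347, 2251 and 1118 to 564, 821 and 504 FPKM, and Blvra fell by 1.08. Osgin1 rose by 2.19 ± 0.238, from 3.40, 7.46 and 4.33 to 26.7, 26.6 and 23.6 FPKM, and Blvrb, a biliverdin reductase, rose by 0.93 (limma, adjusted p at most 0.00276 for these 4). Sod1, a superoxide dismutase, rose by 0.30 and Cat, catalase, fell by 0.67 (limma, adjusted p = 0.0176 and 0.00073). Bach1 (0.29 to 0.52 over 18 alternatives), Txn1 (-0.49 to -0.23) and Sod1 (0.21 to 0.36) lost their call in 2, 6 and 4 of these, which include leaving out Tumor-macrophage 1 for Bach1 and Txn1 and Tumor-macrophage 3 for Txn1 and Sod1. Against Ctrl-AM, Cul3 rose by 1.25, Prdx4 by 1.26, Prdx6 by 1.09, Osgin1 by 2.25, Blvrb by 1.49 and Sod2 by 0.62, and Hmox1 fell by 1.46 (limma, adjusted p at most 0.00222).

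**Figure D4:**
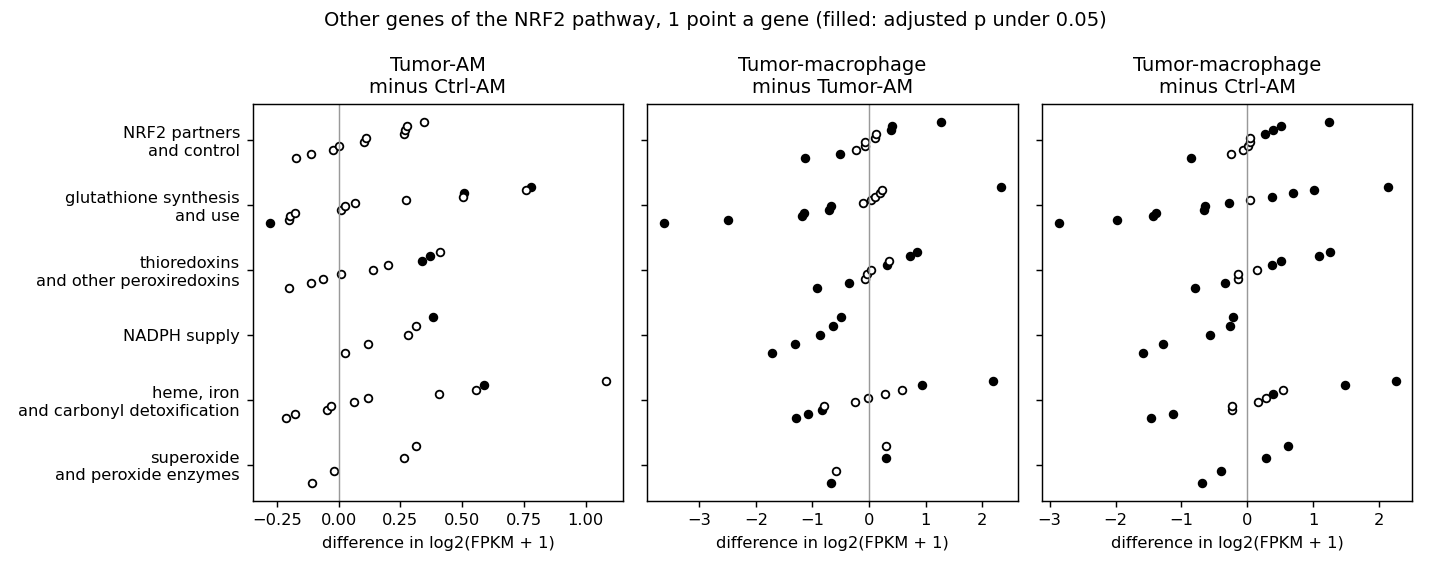
Differences of group means in log2(FPKM + 1) for the 50 tested genes of the wider NRF2 pathway list, in rows by role and panels by comparison, each panel with its own scale; filled points had an adjusted p under 0.05 in limma. All 5 points of the NADPH supply lie below 0 in both comparisons of Tumor-macrophage, and the row of glutathione synthesis and use reaches from -3.62 to 2.33 against Tumor-AM.

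Genes whose pattern over the 9 samples was most like that of the members with the largest differences were found by the root mean square difference of centred log2(FPKM + 1) values. For Slc7a11, which had the largest difference between Tumor-AM and Ctrl-AM, these were Fam63a (0.147), Chst12 (0.149) and Ripk2 (0.173). For Gsr, which had the largest difference in both other comparisons, they were Xrcc5 (0.144), Prkar2b (0.181) and Oaf (0.184). Xrcc5 had mean levels of 13.8 FPKM for Ctrl-AM, 13.5 FPKM for Tumor-AM and 0.815 FPKM for Tumor-macrophage.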

How the data were processed

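RNA of 9 samples of sorted mouse lung macrophages was sequenced. According to the study's methods, SMART-Seq HT cDNA was turned into Nextera XT libraries, and single-end reads of 75 bases were mapped to mm10. The submitters' processing notes name TopHat2 2.1.1, Bowtie2 and Cuffdiff 2.2.1. The authors deposited FPKM, 1 value per gene symbol and sample. FPKM is divided by transcript length and by a measure of library size. Median-ratio size factors of the deposited values were 1.0066 to 1.0119, so that median-ratio scaling nearly repeats the main fit. The sums of FPKM differed more between samples. Rescaling to TPM makes these sums equal, and RNAs of very high abundance then lower the values of the rest. Annotation and strand use were not given in the sources used here, and no batch was labelled. Groups came from the sample titles.

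Values were analysed as log2(FPKM + 1), and this pseudocount understates changes of low genes. The 10686 genes with at least 1 FPKM in at least 3 of 9 samples entered a limma fit (version 3.58.1, R 4.3.3) whose prior variance followed intensity, all 9 samples sharing 1 spread. Tests were two-sided, p-values were adjusted by Benjamini-Hochberg over all genes tested, and the threshold was 0.05. Errors are SE of this fit. The fit was checked on simulated data in which each gene had the same spread in all groups. That check does not cover the unequal spread of some members in Tumor-AM. Python 3.11.15, pandas 2.3.3 and matplotlib 3.10.9 were used for tables and plots. Positions are those of GENCODE on GRCm38, and promoters those of RefSeq on GRCm38.p6. Depth, estimated at 10200000 to 12900000 reads, comes from ratios of low values and limits precision only for Nqo1 among the members.

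All members were named. From each role of the pathway list, up to 2 genes with the largest increase and up to 2 with the largest decrease past the threshold were named, with genes that did not pass the filter. Members and lists were chosen with earlier results of these data known. Sample Tumor-AM 2 and the genes Me1, Akr1b8 and Marco were singled out after their values were seen. Alternatives were another pseudocount, no filter or a filter of 5 FPKM, TPM, median-ratio and quantile scaling, a prior variance held constant, a fit without the group not compared, a replicate block and leaving out each sample.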

Additional observations from a re-analysis of the deposited data

How the results depend on the processing

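Across the 10 members and 3 comparisons, 510 of 537 recomputed differences kept their call, 25 newly passed the threshold and 2 lost it, and no called difference changed sign. Slc7a11 and Txnrd1 in Tumor-AM against Ctrl-AM, and Nfe2l2 and Gsr in both comparisons of Tumor-macrophage, passed in 18 of 18 alternatives. With no filter on low values, where more genes share the adjustment, 3 members instead of 5 were called between Tumor-macrophage and Tumor-AM (Srxn1 and Nqo1 were lost), 1 pathway gene instead of 7 and 505 genes instead of 1100 in Tumor-AM against Ctrl-AM. After rescaling to TPM, 9 members were called between Tumor-macrophage and Tumor-AM and 7 instead of 4 against Ctrl-AM, since Gclc, Gclm and Prdx1 then passed in both as lower and Slc7a11 in the first. TPM moved the median of all genes to -0.11, -0.08 and -0.22 in the 3 comparisons. The share of calls that were higher went from 69.1% to 36.6% in the first and from 50.5% to 32.6% in the third. Under quantile normalization the first share was 57.6%, and Prdx1 passed as lower in both comparisons of Tumor-macrophage.

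The 7 pathway genes called in Tumor-AM against Ctrl-AM were 11 with a filter of 5 FPKM, 3 with TPM, 4 with quantile normalization and 4 with a constant prior variance, and 2 to 11 when 1 sample was left out (2, 2 and 3 without Ctrl-AM 1, 2 and 3, 3 without Tumor-AM 3 or Tumor-macrophage 3, and 11 without Tumor-macrophage 2). All genes called there were 538 to 1254 when 1 sample was left out, with 538, 690 and 549 without Ctrl-AM 1, 2 and 3. The cause was not tested. Without 1 sample, members called were 2, 5 to 7 and 4 to 6 in the 3 comparisons. Depth limits Nqo1 only, which rested on as few as 6.36 estimated reads.

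With the replicate number as a block, 2, 5 and 4 members were called, as without it, and 938, 5069 and 5772 genes, of which 872, 4937 and 5620 were called without the block. The labels do not say that the numbers pair the samples, and same-numbered samples had mean correlations of their deviations of 0.0589, 0.077 and 0.0282, from -0.0615 to 0.159. For Tumor-AM with Tumor-macrophage, same-numbered samples had 0.026, 0.0964 and 0.109, all above the -0.101 to 0.00617 of differently numbered samples. In the other comparisons these ranges overlapped. The deviations were taken from the mean of each group, so these correlations are not independent. Higher values for same-numbered samples go with lower values for the rest. Whether same-numbered samples came from the same mice was not tested.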
